A study of Mus musculus with 15 samples.

Results

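The 32 genes described here include genes that carry glucose into a macrophage, split it to pyruvate, make lactate and move lactate across the membrane. Pdk1 and Pdk3, kinases that switch off pyruvate dehydrogenase, and the transcription factor Hif1a are also among the 32. All 32 genes were taken by symbol from the deposited count table, which lists 47729 features, and all were found and tested. Glycolysis makes ATP in the cytoplasm without oxygen. Macrophages that meet inflammatory stimuli are known to draw more glucose through it, with Hif1a, the oxygen-sensitive subunit of hypoxia-inducible factor, inducing many of its enzymes. In atherosclerotic plaques, glucose uptake by macrophages is the basis of imaging with labelled glucose analogues.

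The cells were aortic macrophages sorted as F4/80+ CD64+ from female Apoe-/- mice (the genotype label reads Apoe dko), a model that develops plaques because it lacks apolipoprotein E. All libraries in both groups came from mice of that genotype fed the high fat diet for 4 weeks, with the aortas of 4 mice pooled before the sort and 100 to 200 cells per sort. Libraries were labelled by whether the sorted cells were positive for Olfr2, an olfactory receptor (Olfr2+), or not (Olfr2-), and the comparison asks how the RNA of the 2 kinds of cells differs. The numbers in the titles were read as sorted samples and the letters as repeats, which gives samples 1, 3 and 4 for Olfr2- (5 columns) and samples 2, 3 and 4 for Olfr2+ (10 columns). The labels call the sorts technical replicates, so the p-values speak of the spread among these sorts, which may be technical.

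Each column held between 29.9 and 95.6 M counts (M, 1000000), in 2 sets. The deeper set, above 60 M, held 7 columns that were all labelled Olfr2+ (2A to 2D and 3A to 3C), and the shallower set had all 5 Olfr2- columns together with 3D, 4A and 4B of Olfr2+. The Olfr2 transcript itself went against the labels, with 76, 34 and 35 counts in the Olfr2- samples and 1, 9 and 8 in the Olfr2+ samples, so every direction below is between libraries labelled Olfr2+ and Olfr2-. Macrophage markers were present in every column, at 4272 to 19818 counts per 1000000 (CPM) for the sum of 16 genes, and Adgre1, which encodes F4/80, ranged from 9.48 to 312 CPM. The 10 fibroblast markers summed to 48030 to 63855 CPM in the deeper columns, against 2944 to 6189 CPM in the other 8. The 9 B cell markers showed the reverse order, with 236 to 5555 CPM against 24217 to 61640 CPM, and no marker of either list was at 0 in a whole group. The part that the depth sets and these other cell types play in the results below was not tested, and in bulk RNA fewer cells of a type cannot be told apart from less RNA per cell.

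Promoters of 5 genes are printed because the results turn on them. Gapdh and Pgk1 separated the deeper columns from the rest. Hk2 was highest in the other Olfr2+ columns, and Slc16a1 lay there above every Olfr2- column but overlapped the deeper columns. Ldha, the lactate-forming dehydrogenase, held the most matches of the 5 to ACGTG, a core of the hypoxia response element. Each line gives the 250 bases before the RefSeq start on GRCm38.p6, 5′ to 3′ in the direction of the gene. Capitals mark ACGTG, one form of the core that hypoxia-inducible factor binds, on either strand (CACGT where it lies on the other strand), and CACGTG where 2 matches overlap. The other form, GCGTG, is not in capitals.
Gapdh promoter (chr6:125165774-125166023, minus strand): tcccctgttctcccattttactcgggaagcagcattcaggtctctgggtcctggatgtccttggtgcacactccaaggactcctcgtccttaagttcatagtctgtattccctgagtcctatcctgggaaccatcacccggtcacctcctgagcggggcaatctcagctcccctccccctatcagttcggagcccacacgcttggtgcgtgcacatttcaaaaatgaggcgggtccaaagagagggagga
Pgk1 promoter (chrX:106186850-106187099, plus strand): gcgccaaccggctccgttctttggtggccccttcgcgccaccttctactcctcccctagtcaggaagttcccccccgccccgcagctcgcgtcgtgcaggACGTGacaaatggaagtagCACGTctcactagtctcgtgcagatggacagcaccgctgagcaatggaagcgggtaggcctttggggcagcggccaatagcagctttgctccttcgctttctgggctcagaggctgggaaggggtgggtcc
Ldha promoter (chr7:46845554-46845803, plus strand): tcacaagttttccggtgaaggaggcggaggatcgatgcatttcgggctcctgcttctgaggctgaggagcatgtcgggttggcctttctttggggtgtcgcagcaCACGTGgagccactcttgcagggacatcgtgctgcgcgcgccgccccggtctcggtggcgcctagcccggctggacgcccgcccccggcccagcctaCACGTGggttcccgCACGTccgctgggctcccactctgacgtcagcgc
Hk2 promoter (chr6:82774455-82774704, minus strand): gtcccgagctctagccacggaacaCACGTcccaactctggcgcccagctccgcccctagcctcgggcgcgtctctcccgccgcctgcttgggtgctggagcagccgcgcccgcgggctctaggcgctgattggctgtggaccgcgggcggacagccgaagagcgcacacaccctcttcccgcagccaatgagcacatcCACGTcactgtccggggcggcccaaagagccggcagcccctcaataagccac
Slc16a1 promoter (chr3:104638414-104638663, plus strand): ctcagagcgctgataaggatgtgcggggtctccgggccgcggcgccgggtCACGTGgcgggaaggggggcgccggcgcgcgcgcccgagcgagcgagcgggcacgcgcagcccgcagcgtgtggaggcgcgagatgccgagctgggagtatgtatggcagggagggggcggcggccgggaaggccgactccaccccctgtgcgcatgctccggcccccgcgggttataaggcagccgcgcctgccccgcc

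Of the 32 genes, 31 had a RefSeq promoter in the table used, in 49 windows, and Slc2a3 had none. ACGTG was found in at least 1 window of 15 of the 31 genes, or 48.4%, against 18.5% of all genes with a window. By window the shares were 38.8% of 49 and 16.6% of 32851. GCGTG was found in 20 of the 31 genes, or 64.5%, against 30.9% of all genes. Gapdh had no ACGTG but 2 GCGTG in its 250 bases. Of ACGTG, Pgk1, Hk2 and Slc16a1 had 2 each, and the first window of Ldha had 5, counting each CACGTG on both strands. The promoters printed differ in base composition, from 55.6% G and C in Gapdh to 76.4% in Slc16a1, and the median over all windows was 52.4%. The match is a description of the letters, since no binding was measured.

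**Figure D1:**
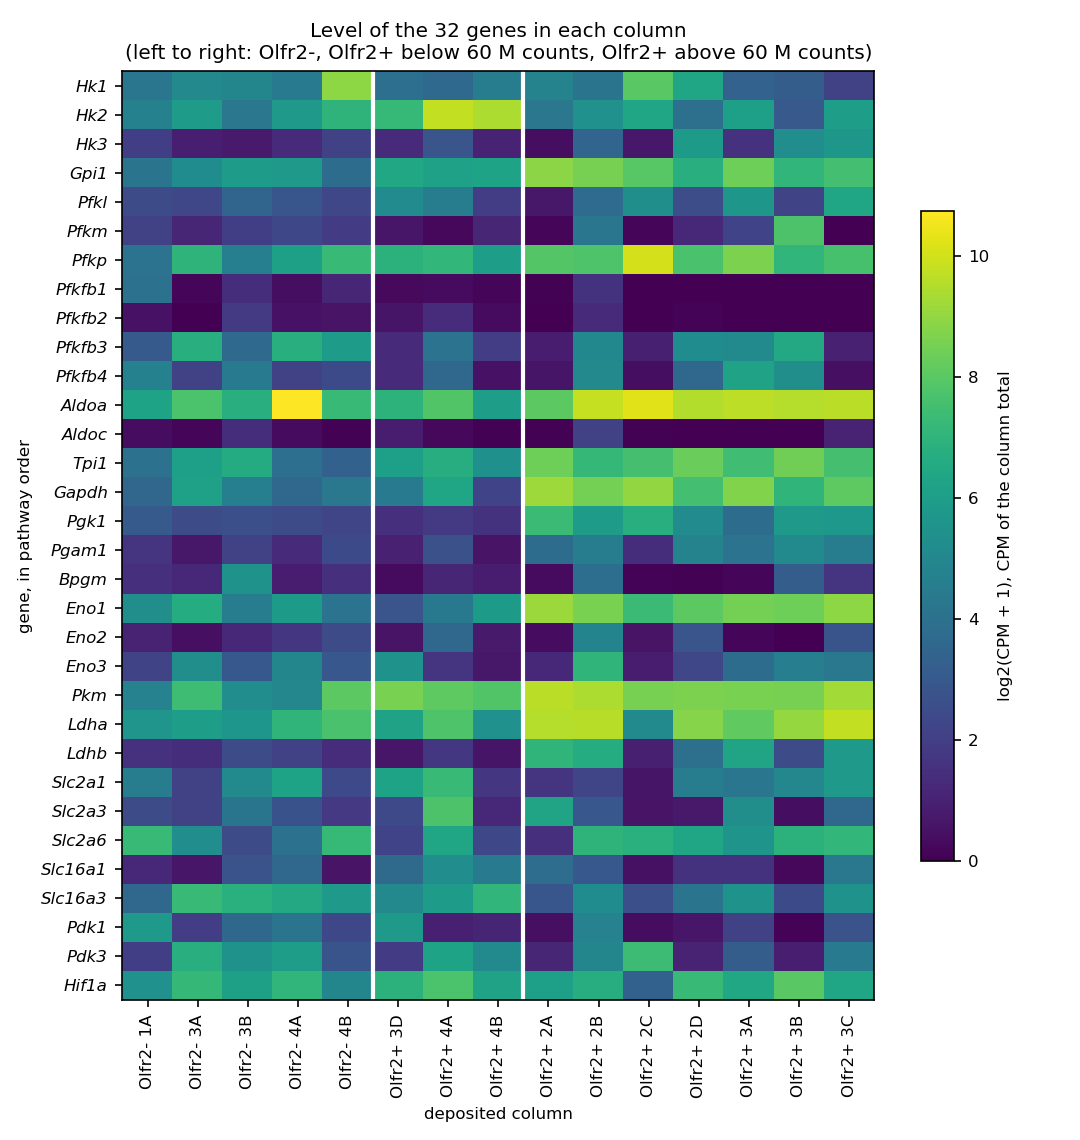
Level of each of the 32 genes (rows, in pathway order) in each of the 15 columns, as log2(CPM + 1) of the column total; white lines part the 5 Olfr2- columns, the 3 Olfr2+ columns below 60 M counts and the 7 above. Gpi1, Tpi1, Gapdh, Pgk1 and Eno1 are brighter in all 7 deeper columns than in the other 8, and Hk2 is brightest in the 3 Olfr2+ columns below 60 M.

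Over all columns, most genes of the pathway had higher levels in the Olfr2+ samples, but 1 of 32 passed the test. Gapdh, glyceraldehyde-3-phosphate dehydrogenase, was called higher by edgeR at an adjusted p under 0.05 and no gene of the 32 was called lower, where 1.12% of the 24362 genes tested were called higher. By sign, 28 of the 32 log2 fold changes were above 0, against 52.5% of all genes, and their median was 3.06 against 0.24 over all genes. An unadjusted p under 0.05 in the higher direction was reached by 15 of the 32, against 17.1% of all genes: Hk2, Hk3, Gpi1, Pfkl, Pfkm, Pfkp, Tpi1, Gapdh, Pgk1, Pgam1, Eno1, Pkm, Ldha, Ldhb and Slc2a3. In 14 of the 32 all 3 Olfr2+ samples lay above all 3 Olfr2- samples after TMM scaling (trimmed mean of M values), against 13.5% of all genes. Replacing TMM with library totals shifted the all-gene median by -1.12 on the log2 scale and turned the calls over all genes from 273 higher and 112 lower to 86 higher and 310 lower (edgeR). With totals the 3 Olfr2+ samples lay above in 6 of the 32 (Hk3, Gpi1, Pfkl, Pgam1, Pkm and Slc2a3), against 6.21% of all genes, and below in 1 (Pfkfb1), against 29.8%. The log2 fold changes of Hk1, Pfkfb2, Slc2a6, Slc16a3 and Pdk3 changed sign with totals.

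The count of called genes depended on the tool and on what was taken as a sample. DESeq2 called 16 of the 30 members for which it gave an adjusted p, all higher, against 14.0% of all genes. With the 8 library names as samples, edgeR called 9 (Gpi1, Pfkp, Tpi1, Gapdh, Pgk1, Eno1, Pkm, Ldha and Ldhb), against 3.40% of all genes, although names then stand in for samples that may share a sort. Without Olfr2+ sample 4, whose 2 columns are both below 60 M, edgeR called 6 of 32 higher, against 3.25% of all genes, and without any other single sample it called 0. The adjusted p of Gapdh was 0.044 without Olfr2+ sample 4, and 0.099, 0.050 and 0.11 without Olfr2- samples 1, 3 and 4 and 0.17 and 0.088 without Olfr2+ samples 2 and 3 (edgeR).

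In the columns below 60 M counts, where 2 Olfr2+ samples could be compared with 3 Olfr2- samples, the difference was smaller and few genes stood out. edgeR called none of the 32 there, and 0% of the 29989 genes tested, while DESeq2 called 4 of the 30 members with an adjusted p, all higher, against 8.46% of all genes. Positive log2 fold changes numbered 21 of 32 (40.2% of all genes), with a median of 1.05 against -0.43. Hk2, Pkm, Slc2a3 and Slc16a1 were the 4 genes with an unadjusted p under 0.05 in the higher direction, against 4.85% of all genes, and Pfkfb1 was the 1 gene in the lower direction. The log2 fold change of 25 of the 32 lay lower there than over all columns, and 9 had the other sign (Hk1, Pfkm, Pfkfb4, Aldoa, Pgk1, Eno1, Ldhb, Slc2a6 and Pdk1).

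**Figure D2:**
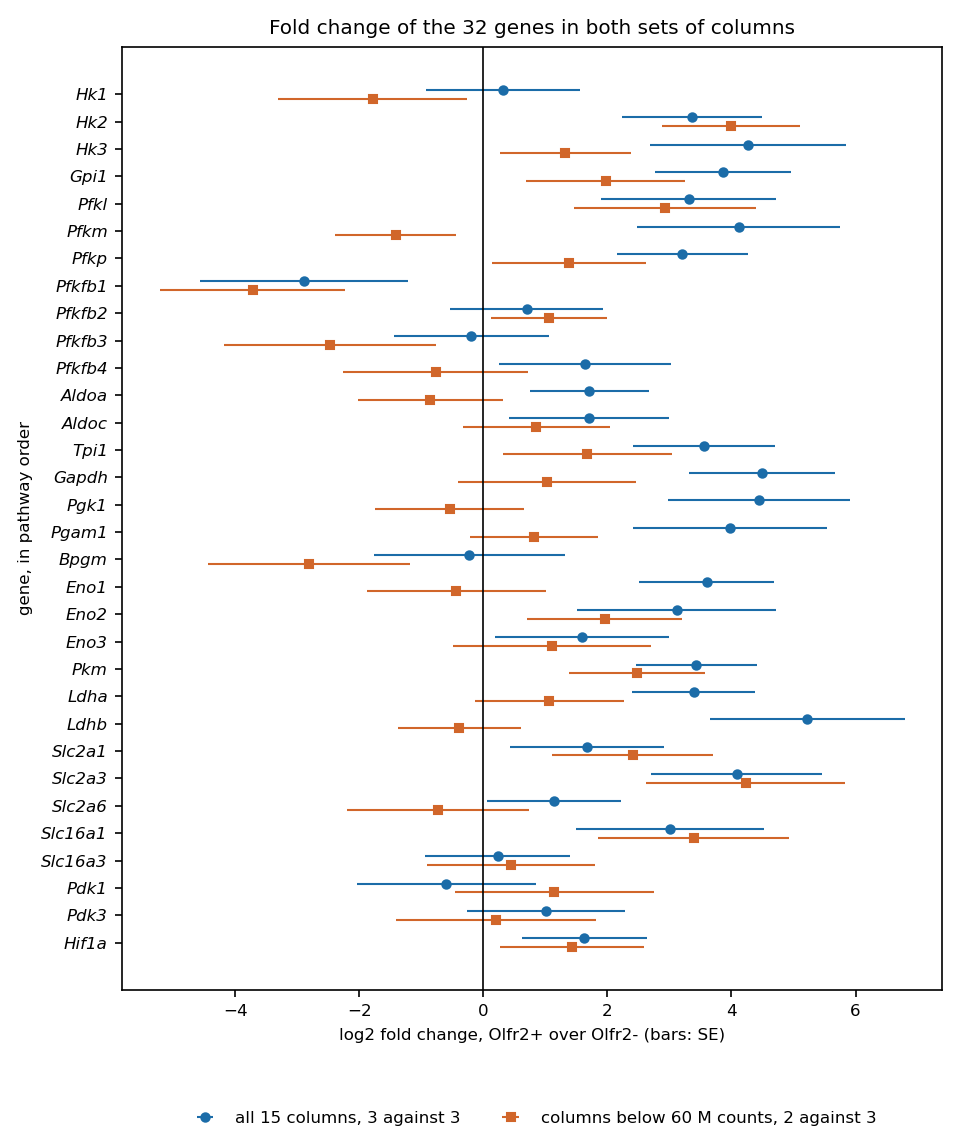
Log2 fold change of each gene, Olfr2+ over Olfr2-, with its standard error, over all 15 columns (circles, 3 samples against 3) and in the columns below 60 M counts (squares, 2 against 3). Circles of Tpi1, Gapdh, Pgk1, Pgam1, Eno1, Pkm, Ldha and Ldhb lie between 3.39 and 5.22. The squares of Pgk1, Eno1 and Ldhb lie below 0 and those of Hk2, Slc2a3 and Slc16a1 above 3.

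Glucose enters through facilitative carriers, and the 3 measured ones did not share a pattern. Slc2a1, the carrier GLUT1, was at 13.6, 10.9 and 29.0 CPM in Olfr2- samples 1, 3 and 4 and at 14.6, 54.9 and 100.0 CPM in Olfr2+ samples 2, 3 and 4 (TMM-scaled CPM, as are all sample values below). The groups overlapped, since Olfr2+ sample 2 lay at the level of Olfr2- sample 1, and the log2 fold change was 1.66 (SE 1.24, adjusted p = 0.32 by edgeR). Slc2a3, the high-affinity carrier GLUT3, was at 2.78, 6.33 and 2.74 CPM in Olfr2- and 42.0, 22.7 and 137 CPM in Olfr2+. The groups did not overlap, with a log2 fold change of 4.09 (SE 1.38, adjusted p = 0.081 by edgeR) that was 4.23 (SE 1.60, adjusted p = 0.44) below 60 M. Single columns carried it: Olfr2+ column 4A held 212 CPM and 4B 1.31 CPM, and among the deeper columns 2A held 77.6 CPM while 2C, 2D and 3B were under 1 CPM. Slc2a6, the lysosome-associated carrier GLUT6 of macrophages, was at 90.6, 19.1 and 47.9 CPM in Olfr2- and 169, 125 and 53.2 CPM in Olfr2+, so the groups overlapped (log2 fold change 1.14, SE 1.08, adjusted p = 0.43 by edgeR). Its sign turned below 60 M, at -0.74 (SE 1.46). Counted per kilobase of transcript, Slc2a6 led these 3 carriers in 5 of the 6 samples, with 64.4 to 89.7% of their summed level. Slc2a3 led the 3 in Olfr2+ sample 4 with 38.4%.

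Hexokinases trap glucose in the cell as glucose-6-phosphate. Hk2, the inducible form, was at 15.3, 33.1 and 55.9 CPM in Olfr2- and at 80.4, 83.5 and 907 CPM in Olfr2+. All 3 Olfr2+ samples lay above the Olfr2- samples, sample 4 far above the other two, and the fitted log2 fold change was 3.36 (SE 1.12, adjusted p = 0.080 by edgeR). Without Olfr2+ sample 4 it was 1.18 (adjusted p = 0.36 by edgeR). By column, with CPM of the column total, Hk2 separated the 3 Olfr2+ columns below 60 M from everything else: 3D held 149 CPM, 4A 871 CPM and 4B 682 CPM, against 18.3 to 125 CPM in the 5 Olfr2- columns and 6.91 to 78.3 CPM in the 7 deeper Olfr2+ columns. Below 60 M the log2 fold change was 4.00 (SE 1.11), with an unadjusted p of 0.0022 and an adjusted p of 0.41 by edgeR. Columns 3C and 3D carry 1 sample number and lie in different depth sets, and Hk2 was at 62.2 CPM in 3C and 149 CPM in 3D.

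Hk1, the constitutive form bound to mitochondria, was at 10.7, 23.3 and 148 CPM in Olfr2- and at 196, 11.3 and 19.0 CPM in Olfr2+, with full overlap (log2 fold change 0.32, SE 1.24, adjusted p = 0.86 by edgeR). Hk3, a hexokinase typical of myeloid cells, was at 1.81, 0.617 and 1.49 CPM in Olfr2- and at 35.0, 36.2 and 4.41 CPM in Olfr2+, without overlap (log2 fold change 4.27, SE 1.58, adjusted p = 0.094 by edgeR). Its deeper columns did not act alike: 2D, 3B and 3C held 37.2 to 56.5 CPM, 2B held 10.3 CPM, and 2A, 2C and 3A held 0.314 to 1.92 CPM. Per kilobase the leading hexokinase changed with the sample, from Hk1 with 76.5% in Olfr2- sample 4 and 64.3% in Olfr2+ sample 2 to Hk2 with 96.6% in Olfr2+ sample 4.

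Gpi1, which turns glucose-6-phosphate to fructose-6-phosphate, was at 10.1, 34.4 and 24.2 CPM in Olfr2- and at 621, 292 and 83.0 CPM in Olfr2+. The groups did not overlap, and the log2 fold change was 3.86 (SE 1.10, adjusted p = 0.061 by edgeR). It was the gene of this pathway in which both depth sets of Olfr2+ columns lay above every Olfr2- column: 12.8 to 61.1 CPM in Olfr2-, 69.8 to 85.4 CPM in the 3 Olfr2+ columns below 60 M and 106 to 473 CPM in the 7 above. Below 60 M its log2 fold change was 1.97 (SE 1.29, adjusted p = 0.58 by edgeR).

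The committed step is phosphofructokinase. Pfkp, the platelet-type subunit, held 61.6 to 94.9% of the 3 subunits' level per kilobase in all 6 samples. It was at 9.73, 66.6 and 70.3 CPM in Olfr2- and at 900.1, 328 and 121 CPM in Olfr2+, without overlap (log2 fold change 3.20, SE 1.06, adjusted p = 0.079 by edgeR), and its highest column was 2C with 1077 CPM. Pfkl, the liver-type subunit, was at 2.86, 4.69 and 3.47 CPM in Olfr2- and at 30.3, 63.1 and 15.8 CPM in Olfr2+. These groups did not overlap either, and the log2 fold change was 3.31 (SE 1.41, adjusted p = 0.12 by edgeR) over all columns and 2.93 (SE 1.47, adjusted p = 0.50) below 60 M. By column they did: 2A, 3B and 4B, at 0.617, 3.64 and 2.91 CPM, lay below every Olfr2- column (3.83 to 10.3 CPM). Of the Olfr2+ columns, 4 deeper ones and 2 below 60 M lay above every Olfr2- column. Pfkm, the muscle-type subunit, was dominated by 1 column: 3B held 217 CPM, while 2A, 2C, 3C, 3D and 4A were under 1 CPM and 3C had 0 counts. Its log2 fold change was 4.12 (SE 1.63, adjusted p = 0.11 by edgeR) over all columns and -1.41 (SE 0.98, adjusted p = 0.61) below 60 M.

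The 6-phosphofructo-2-kinases set the level of fructose-2,6-bisphosphate, the activator of phosphofructokinase. Pfkfb3, the most glycolytic of them, was at 4.33, 53.4 and 57.4 CPM in Olfr2- and at 36.7, 52.1 and 12.0 CPM in Olfr2+. The groups overlapped, with a fitted log2 fold change of -0.19 (SE 1.25, adjusted p = 0.92 by edgeR). Below 60 M it was at 7.15 to 108 CPM in the Olfr2- columns and 1.45 to 16.4 CPM in the Olfr2+ columns, a log2 fold change of -2.47 (SE 1.70, adjusted p = 0.61 by edgeR). Pfkfb4 overlapped between the groups (log2 fold change 1.64, SE 1.38, adjusted p = 0.38 by edgeR) and was below 1 CPM in 4 Olfr2+ columns. Pfkfb1 and Pfkfb2 were near the floor: Pfkfb1 was under 1 CPM in 11 of 15 columns and Pfkfb2 in 12, and Olfr2- column 1A, at 15.3 CPM, had by far the highest Pfkfb1 level. With a log2 fold change of -2.89 (SE 1.67, adjusted p = 0.21 by edgeR), Pfkfb1 had the lowest value of the 32.

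Aldolase cuts fructose-1,6-bisphosphate into trioses. Aldoa had the highest mean level of the 32 per kilobase, at 317 CPM per kilobase over the 6 samples, ahead of Ldha at 128, Pkm at 105, Gapdh at 91.6, Eno1 at 71.8 and Tpi1 at 65.9. It led in 4 of the 6 samples, while Slc2a6 led in Olfr2- sample 1 and Hk2 in Olfr2+ sample 4, at 70.0 and 143 CPM per kilobase against 47.7 and 99.2 for Aldoa. As TMM-scaled CPM, Aldoa was at 44.7, 128 and 690.4 CPM in Olfr2- and at 1635, 1008 and 177 CPM in Olfr2+, with overlap (log2 fold change 1.71, SE 0.96, adjusted p = 0.20 by edgeR). Its highest column was Olfr2- 4A at 1731 CPM, above all 7 deeper columns (267 to 1227 CPM), and below 60 M its log2 fold change was -0.85 (SE 1.16, adjusted p = 0.81). Aldoc, the brain form, was under 1 CPM in 12 of 15 columns and took at most 0.23% of the aldolase level per kilobase.

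Among the steps from triosephosphate isomerase to enolase, that of Gapdh makes NADH and that of Pgk1 makes ATP. Tpi1, Gapdh, Pgk1 and Eno1 of these steps, and Gpi1 above them, were the 5 of 32 genes with all 7 deeper columns above all other 8 columns, a pattern shown by 1.41% of the 24362 genes tested. Pgam1, Bpgm, Eno2 and Eno3 of the same steps did not have it. Gpi1, Tpi1, Gapdh, Pgk1 and Eno1 were picked by that pattern, so their sum had to be higher in the deeper columns. The summed level of these 5 was 60.9 to 278 CPM in the Olfr2- columns and 178 to 274 CPM in the 3 Olfr2+ columns below 60 M. In the deeper columns it was 901 to 2119 CPM. The Olfr2+ columns below 60 M thus lay within the range of the Olfr2- columns.

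**Figure D3:**
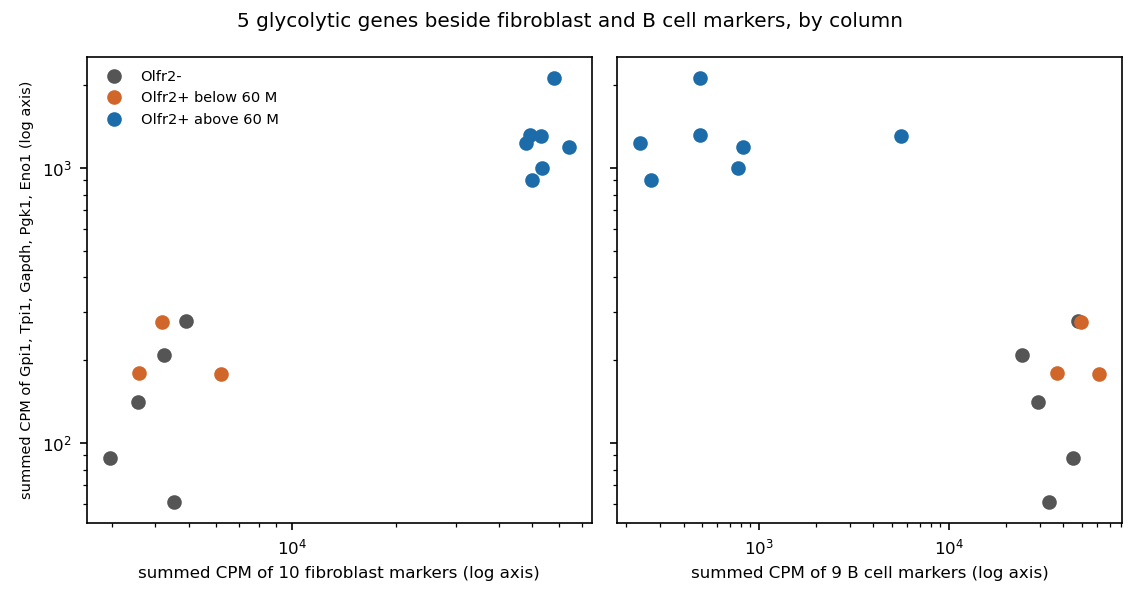
Summed CPM of Gpi1, Tpi1, Gapdh, Pgk1 and Eno1 in each of the 15 columns against the summed CPM of 10 fibroblast markers (left) and 9 B cell markers (right), on log axes. The 7 deeper Olfr2+ columns form a cluster of high fibroblast and low summed B cell markers, and the 3 other Olfr2+ columns lie with the 5 Olfr2- columns. The 5 genes were picked for being higher in the deeper columns, so the gap on the vertical axis follows from that choice.

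Tpi1, which interconverts the 2 triose phosphates, was at 9.13, 58.4 and 7.96 CPM in Olfr2- and at 497, 303 and 87.3 CPM in Olfr2+, without overlap (log2 fold change 3.56, SE 1.14, adjusted p = 0.076 by edgeR). Its columns held 9.26 to 97.4 CPM in Olfr2-, 40.7 to 104 CPM in Olfr2+ below 60 M and 144 to 343 CPM in the deeper set. The lowest Olfr2+ columns therefore lay inside the Olfr2- range.

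Gapdh, the step that makes NADH, was at 6.51, 39.4 and 9.59 CPM in Olfr2- and at 846, 351 and 52.4 CPM in Olfr2+, so all 3 Olfr2+ samples lay above. The group means were 18.5 ± 18.2 and 416 ± 401 CPM (SD, n = 3 each), a log2 fold change of 4.49 (SE 1.18, adjusted p = 0.049 by edgeR). By column of the total count, Olfr2- held 10.8 to 69.8 CPM, Olfr2+ below 60 M 3.51, 20.0 and 78.8 CPM, and the deeper set 132 to 586 CPM. Below 60 M the log2 fold change was 1.03 (SE 1.44, adjusted p = 0.81 by edgeR), so the call ended there. Gapdh has many processed copies: 82.5% of the 50-base stretches of its transcript also occur in 222 other annotated genes, 209 of them pseudogenes. The 88 pseudogenes of this table that share at least 5% of those stretches summed to 21.9 to 50.6 CPM in the Olfr2- columns, 9.64 to 16.9 CPM in the Olfr2+ columns below 60 M and 10.7 to 79.0 CPM in the deeper set. Of the reads counted to Gapdh and these pseudogenes together, the pseudogenes thus held 30.5 to 82.5% in Olfr2-, 13.5 to 73.3% in Olfr2+ below 60 M and 4.14 to 15.9% in the deeper set. In the shallower columns Gapdh's own level is uncertain for that reason. The combined level was 33.0 to 100.4 CPM, 13.2 to 91.0 CPM and 142 to 628 CPM in the 3 sets, so the deeper columns lay above the rest with the pseudogenes counted in.

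Pgk1, phosphoglycerate kinase, the first step to yield ATP, was at 4.47, 3.64 and 2.74 CPM in Olfr2- and at 186, 48.2 and 2.67 CPM in Olfr2+. Olfr2+ sample 4 was the lowest of all 6, so the groups overlapped, and the log2 fold change of 4.45 (SE 1.47, adjusted p = 0.079 by edgeR) came from samples 2 and 3. The columns were tightly grouped outside the deeper set: 3.74 to 7.38 CPM in Olfr2- and 1.83, 2.58 and 1.97 CPM in Olfr2+ 3D, 4A and 4B, against 12.8 to 161 CPM in the deeper columns. All 3 Olfr2+ columns below 60 M lay below all 5 Olfr2- columns, and the fitted log2 fold change there was -0.54 (SE 1.20, adjusted p = 0.89 by edgeR). Other annotated genes share 68.0% of its 50-base stretches.

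Pgam1, phosphoglycerate mutase, was at 1.27, 1.20 and 1.80 CPM in Olfr2- and at 33.2, 30.3 and 3.67 CPM in Olfr2+, without overlap (log2 fold change 3.97, SE 1.57, adjusted p = 0.11 by edgeR). Of the 7 deeper columns 6 lay above all others, and 2C, at 1.68 CPM, did not. Bpgm, which makes 2,3-bisphosphoglycerate, was under 1 CPM in 7 columns, and Olfr2- column 3B alone held 45.3 CPM. Its log2 fold change was -0.23 (SE 1.54, adjusted p = 0.92 by edgeR).

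Eno1, the widely expressed enolase, was at 23.2, 53.1 and 25.7 CPM in Olfr2- and at 704, 494 and 41.6 CPM in Olfr2+. Olfr2+ sample 4 lay between the Olfr2- samples. Its log2 fold change was 3.60 (SE 1.09, adjusted p = 0.068 by edgeR) over all columns and -0.44 (SE 1.44, adjusted p = 0.93) below 60 M. The deeper columns held 161 to 569 CPM, the other Olfr2+ columns 6.06, 19.3 and 57.2 CPM, and the Olfr2- columns 16.1 to 100.2 CPM. Of the 50-base stretches of Eno1, 70.5% also occur in the near-identical gene Eno1b, and reads of the pair may have been split. Eno2, the neuronal form, was at 0.635, 0.546 and 2.15 CPM in Olfr2- and at 18.8, 2.50 and 7.67 CPM in Olfr2+ (log2 fold change 3.12, SE 1.60, adjusted p = 0.17 by edgeR). Eno3, the muscle form, overlapped between the groups, with 1 column, 2B, at 130 CPM (log2 fold change 1.59, SE 1.41, adjusted p = 0.40 by edgeR).

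Pkm, pyruvate kinase, was at 16.1, 90.7 and 86.4 CPM in Olfr2- and at 1167, 629 and 290 CPM in Olfr2+. No sample overlapped, the log2 fold change was 3.43 (SE 0.98, adjusted p = 0.061 by edgeR), and below 60 M it kept most of its size at 2.48 (SE 1.09, unadjusted p = 0.036, adjusted p = 0.46 by edgeR). Its columns ran from 26.6 to 261 CPM in Olfr2-, 225 to 385 CPM in Olfr2+ below 60 M and 377 to 796 CPM in the deeper set. The deeper columns thus lay above every Olfr2- column, but 3D, at 385 CPM, lay above 3 of the deeper ones.

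**Figure D4:**
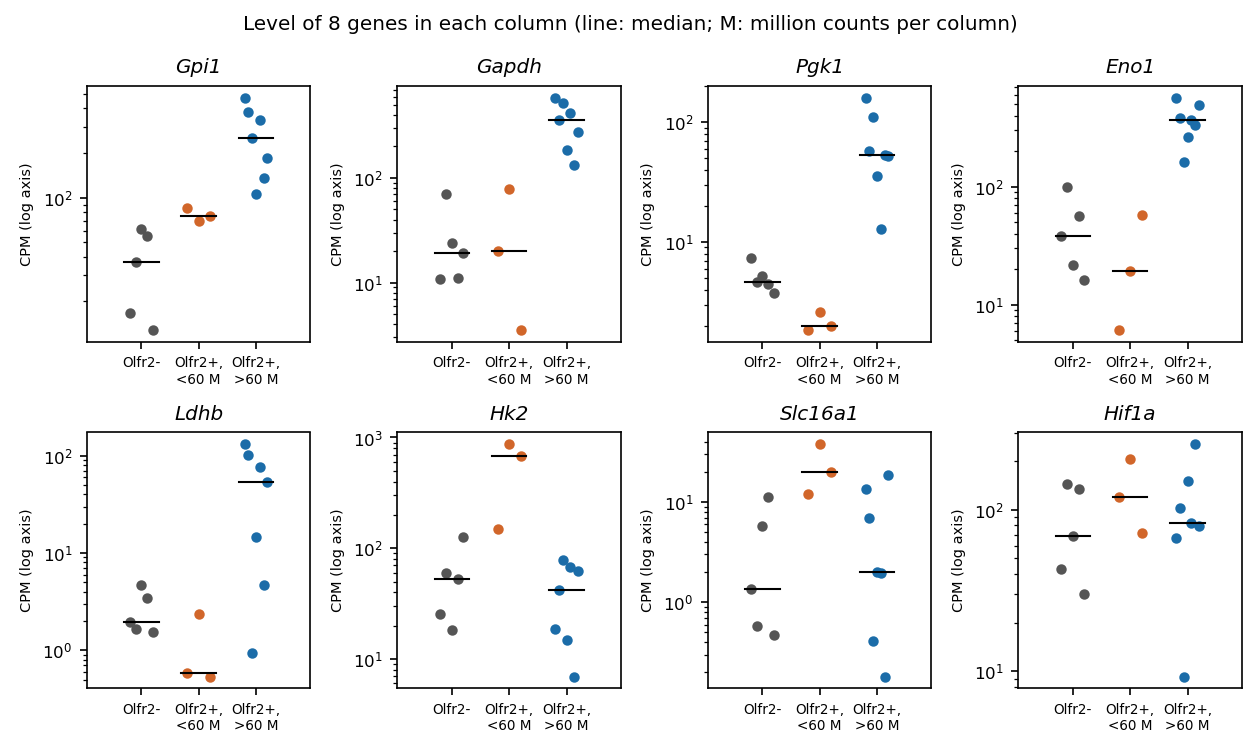
CPM of the column total (log axes) for 8 genes in the 5 Olfr2- columns, the 3 Olfr2+ columns below 60 M counts and the 7 above; each point is a column and each line a median. Gapdh, Pgk1 and Eno1 are high in the deeper set alone, and Gpi1 is above the Olfr2- columns in both Olfr2+ sets. Hk2 is highest in the Olfr2+ set below 60 M. Slc16a1 in that set is above the Olfr2- columns but overlaps the deeper set, and the levels of Hif1a overlap in all sets.

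Lactate dehydrogenase returns pyruvate to lactate and restores NAD. Ldha, the muscle-type subunit, held 85.4 to 98.5% of the pair's level per kilobase in every sample. It was at 28.6, 44.0 and 107 CPM in Olfr2- and at 1030.0, 693 and 163 CPM in Olfr2+, without overlap (log2 fold change 3.39, SE 0.99, adjusted p = 0.063 by edgeR). Among the deeper columns 6 held 279 to 871 CPM and lay above all others, and 2C held 33.1 CPM, the lowest of all 15. Ldhb, the heart-type subunit, had the largest log2 fold change of the 32, 5.22 (SE 1.57, adjusted p = 0.068 by edgeR). It was at 1.17, 2.08 and 1.72 CPM in Olfr2- and at 127, 57.4 and 1.78 CPM in Olfr2+, so samples 2 and 3 were high and sample 4 lay at the level of Olfr2-. The deeper columns 2A, 2B, 2D, 3A and 3C held 14.7 to 131 CPM, 3B and 2C held 4.63 and 0.944 CPM, and the other 3 Olfr2+ columns 0.535 to 2.34 CPM. Below 60 M its log2 fold change was -0.39 (SE 0.99, adjusted p = 0.91).

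Monocarboxylate carriers move lactate across the membrane. Slc16a3, MCT4, the exporter of glycolytic cells, was at 6.79, 103 and 48.8 CPM in Olfr2- and at 34.0, 45.0 and 107 CPM in Olfr2+, with full overlap (log2 fold change 0.23, SE 1.17, adjusted p = 0.89 by edgeR). Slc16a1, MCT1, was at 0.814, 1.88 and 4.29 CPM in Olfr2- and at 11.5, 10.5 and 34.4 CPM in Olfr2+, without overlap (log2 fold change 3.01, SE 1.51, adjusted p = 0.16 by edgeR). As with Hk2, the 3 Olfr2+ columns below 60 M were above every Olfr2- column: 12.0, 37.8 and 19.7 CPM in 3D, 4A and 4B against 0.468 to 11.1 CPM. The deeper columns spanned 0.181 to 18.8 CPM and overlapped both. The log2 fold change below 60 M was 3.39 (SE 1.54, unadjusted p = 0.041, adjusted p = 0.47 by edgeR).

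Pyruvate dehydrogenase kinases switch off the entry of pyruvate into the tricarboxylic acid cycle. Pdk1 and Pdk3 were among the 32 genes, and Pdk2 and Pdk4 were not. Pdk3 was at 1.81, 64.1 and 25.3 CPM in Olfr2- and at 105, 12.8 and 66.1 CPM in Olfr2+, and Pdk1 at 32.5, 4.50 and 7.37 CPM against 15.01, 13.1 and 1.20 CPM. Both overlapped, with log2 fold changes of 1.01 (SE 1.27, adjusted p = 0.56 by edgeR) and -0.59 (SE 1.44, adjusted p = 0.77 by edgeR). Hif1a was the most even of the genes above among the Olfr2+ samples, at 169, 192 and 169 CPM, against 26.1, 86.7 and 58.6 CPM in Olfr2-. The samples did not overlap, with means of 177 ± 13.1 and 57.1 ± 30.4 CPM (SD, n = 3 each), yet the log2 fold change of 1.63 (SE 1.01) had an adjusted p of 0.24 by edgeR. With totals alone the samples overlapped, and by column Hif1a ran from 29.9 to 144 CPM in Olfr2- and from 9.26 to 254 CPM in Olfr2+.

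Columns of 1 numbered sample differed widely from each other. For the 24 genes with a mean above 10 CPM, the range of log2(CPM + 1) over the columns of a sample had a median of 3.91 in Olfr2+ sample 2 and 3.87 in Olfr2+ sample 3, with 4 columns each, against 4.27 and 3.80 for all 8504 genes at that level. In the samples with 2 columns the medians were 1.42, 1.19 and 1.26 (Olfr2- 3 and 4, Olfr2+ 4). The widest range was that of Pfkm in Olfr2+ sample 3, at 7.77. Between columns 3C and 3D, which share a number but not a depth set, 16 of the 32 genes were higher in 3C by more than 1 on the log2 scale and 4 lower, against 46.2% and 27.1% of the 8504 genes. The 32 here include genes with a mean below 10 CPM, which the 8504 do not, so these sets were not matched in level. The median difference was 0.91 against 0.68.

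The summed level of the 32 genes, in CPM of the library total, was 654, 1304 and 2331 in Olfr2- samples 1, 3 and 4 and 4275, 3614 and 2317 in Olfr2+ samples 2, 3 and 4. The lowest Olfr2+ sample lay just under the highest Olfr2- sample, and an exact two-sided permutation test of 3 against 3, which cannot go below 0.1, gave p = 0.2. By column the sum was 654 to 2746 CPM in Olfr2-, 1434 to 2919 CPM in Olfr2+ below 60 M and 3204 to 4717 CPM in the deeper set. All 7 deeper columns exceeded the other 8, and the 3 remaining Olfr2+ columns overlapped the Olfr2- columns. The overlap of the samples and the separation of the deeper columns turned on Aldoa. In the sum without it, chosen after seeing the data, the samples were at 580, 1134 and 1286 in Olfr2- and 3483, 2904 and 2163 in Olfr2+ and did not overlap (exact permutation p = 0.1). The lowest deeper column, at 2478 CPM, then lay under the highest of the other Olfr2+ columns, at 2694 CPM.

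Ratios of related genes within a sample need no scaling, and 14 such ratios were compared. Slc16a3 over Slc16a1, the ratio of the lactate exporter MCT4 to MCT1, was 3.04, 5.77 and 3.51 on the log2 scale in Olfr2- and 1.57, 2.10 and 1.64 in Olfr2+. The difference of the means was -2.34 (4.11 ± 1.46 in Olfr2- against 1.77 ± 0.29 in Olfr2+, SD, n = 3 each; exact permutation p = 0.1, the smallest this design allows, 0.70 after Benjamini-Hochberg adjustment over the 14). It was -2.57 below 60 M, so it was as large without the deeper columns. By column the ratio ran from 3.00 to 8.00 in Olfr2- and from 0.63 to 2.78 in Olfr2+ below 60 M. In the deeper set it ran from -1.10 to 4.55, which overlapped the Olfr2- columns. Hk3 over Hk1 was -2.56, -5.23 and -6.63 in Olfr2- and -2.49, 1.68 and -2.11 in Olfr2+, also without overlap (difference 3.83, exact permutation p = 0.1, adjusted 0.70), although Olfr2- sample 1 and Olfr2+ sample 2 were close. By column, Hk3 over Hk1 ran from -7.17 to -2.56 in Olfr2- and from -8.71 to 3.94 in the deeper set. The other 12 ratios overlapped between the groups of summed samples. Among the Olfr2+ samples Hk2 over Hk1 ran from -1.29 in sample 2 to 5.58 in sample 4, and the Ldha to Ldhb ratio from 3.02 to 6.51 in the same samples.

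**Figure D5:**
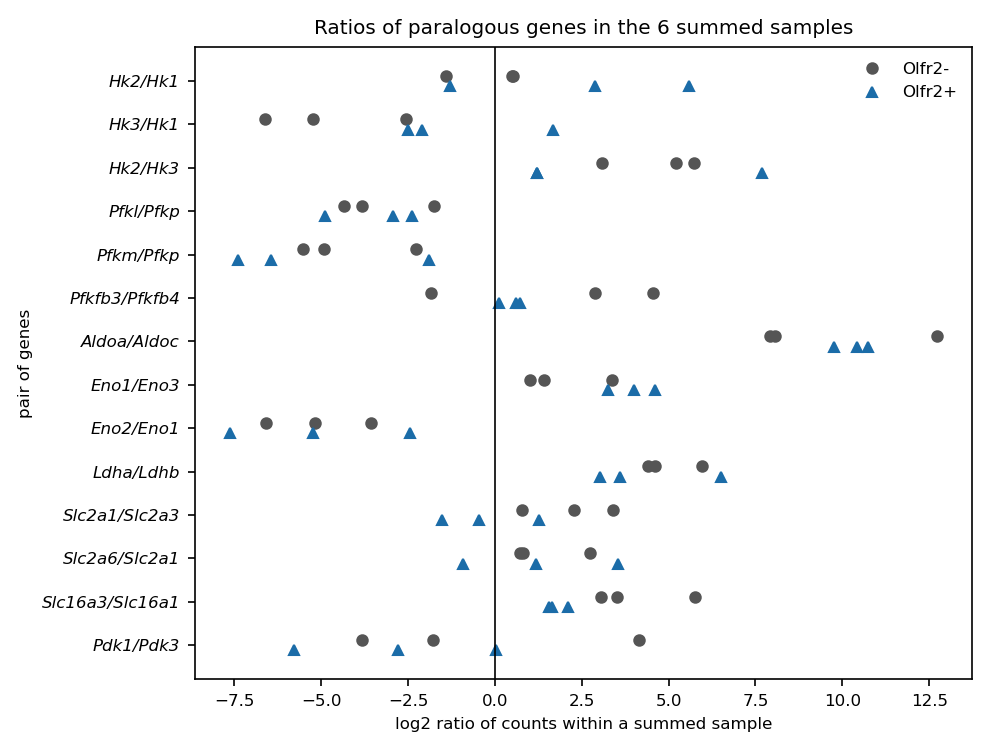
Log2 ratio of the counts of 14 pairs of related genes in the 3 Olfr2- (circles) and the 3 Olfr2+ summed samples (triangles). Slc16a3/Slc16a1 and Hk3/Hk1 are the pairs whose groups of summed samples do not overlap. In the first the Olfr2+ summed samples lie between 1.57 and 2.10. Single columns, not drawn here, overlap between the groups in both pairs.

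Other genes around the pathway gave few calls. Among 34 tested genes of glucose and pyruvate handling outside the 32, Pdp1, the phosphatase that reactivates pyruvate dehydrogenase, was called higher and none lower. It was at 6.82, 2.62 and 5.64 CPM in Olfr2- and at 39.3, 82.2 and 205 CPM in Olfr2+ by library total, with a log2 fold change of 5.46 (SE 1.29, adjusted p = 0.041 by edgeR) that was 5.31 below 60 M. Its Olfr2+ columns still ran from 0.787 to 449 CPM. Of 17 pentose phosphate and glycogen genes, H6pd, the glucose-6-phosphate dehydrogenase of the endoplasmic reticulum, was called higher (log2 fold change 5.21, SE 1.26, adjusted p = 0.042 by edgeR). It followed the depth sets, with 134 to 639 CPM in the deeper columns against 2.69 to 20.9 CPM in the other 8, and its log2 fold change was 0.04 below 60 M. Of 24 genes of the hypoxia-inducible factor pathway and hypoxia response, Egln2, an oxygen-sensing prolyl hydroxylase, was called higher at 4.90 (SE 1.27, adjusted p = 0.048 by edgeR), and 4.86 below 60 M. Its Olfr2+ columns were spread widely, from 3.31 to 393 CPM below 60 M and from 0.285 to 208 CPM in the deeper set. The Olfr2- columns held 3.40 to 14.6 CPM, so the columns of the 2 groups overlapped. edgeR called none of the 23 tricarboxylic acid cycle genes, although 11 had an unadjusted p under 0.05, all higher, and DESeq2 called 10 of 22, all higher. Over all genes these shares were 1.12% called higher by edgeR, 17.1% higher at an unadjusted p under 0.05 and 14.0% called higher by DESeq2. The median log2 fold changes of these lists were 0.88, 2.31, 2.12 and 2.06, against 3.06 for the 32 and 0.24 for all genes, and below 60 M -0.32, 0.78, 0.63 and 0.67 against 1.05 and -0.43.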

How the data were processed

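RNA of 15 libraries was sequenced after low-input Smart-Seq2, per the labels' protocols. The values deposited by the authors are raw integer read counts per gene without normalization, and all 15 columns were used. DRAGEN, STAR 2.7.1, DESeq2 1.34 and the build GRCm39 appear, per the submitters' processing notes, with no role given. The title of the deposited table names HTSeq, without a version or settings. Its annotation release, strand setting and treatment of multi-mapping reads were not given in the sources used here. Antisense or near-identical genes therefore stay uncertain, and because Smart-Seq2 has no molecular identifiers a count is a read, not a molecule.

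The 32 genes and all lists were chosen with earlier results of these data known. Named genes were those called, the highest of each role, those whose groups did not overlap at an unadjusted p under 0.05, and those of the other sign below 60 M counts. Counts were summed per numbered sample, giving 30.5 to 363.9 M per sample, and 3 Olfr2+ samples were compared with 3 Olfr2- samples in edgeR 4.0.16 (glmQLFit and glmQLFTest, R 4.3.3). Scaling was by TMM, filterByExpr removed low genes, and Benjamini-Hochberg adjusted p-values over all genes tested were called under 0.05. The standard error was taken from the F statistic. The same fit was run on the columns below 60 M counts, a division known from the column totals. Ratios used log2 of counts plus 0.5 and exact permutation tests (scipy 1.17.1). DESeq2 1.42.0, limma-voom (limma 3.58.1), other scalings, filters, units of replication, a depth covariate, a replicate block and leaving out each sample served as alternatives. Those of the comparison below 60 M were added after seeing the data. The fit was tested on simulated counts. Levels per kilobase used the length of 1 GENCODE transcript per gene on GRCm38, and sharing of 50-base stretches was counted among transcripts of that annotation. Promoters came from RefSeq on GRCm38.p6. No coordinates are taken from the count table, which names no build.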

Additional observations from a re-analysis of the deposited data

Results flagged for a closer look

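In 64 groups of columns (each of the 32 genes in each label), the highest or lowest column was compared with its neighbour, and 6 columns stood apart from the rest of their group by more than Dixon's 95% critical value. Chance alone gives about 1 in 20 such groups, so these are given as values. Hk1 was at 488 CPM in Olfr2- column 4B, against at most 32.3 CPM in the other 4 Olfr2- columns. Bpgm was at 45.3 CPM and Aldoc at 1.63 CPM in Olfr2- column 3B. In Olfr2+ column 2B Aldoc was at 3.36 CPM and Pfkfb1 at 1.95 CPM, both low in absolute level. Hif1a was at 9.26 CPM in Olfr2+ column 2C, the lowest of the 10 Olfr2+ columns, where the next lowest held 66.5 CPM.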

How the results depend on the processing

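Of the 32 genes, 17 kept 1 sign in every alternative that gave a value, Gapdh, Gpi1, Tpi1, Pkm, Ldha and Hk2 among them, and 15 changed sign in at least 1. The number called, 1 in the report, was 16 with DESeq2, 9 with the 8 library names and 7 with the 15 columns as samples, 2 without a filter, and 0 with limma-voom, library totals, a filter at a mean of 10 CPM (24 genes left), the columns below 60 M, depth set as a covariate and the replicate block. Over all genes, 385 were called in the report, and 6707, 1568, 893, 881, 0, 0, 0, 0 and 2 with DESeq2, library names, columns, no filter, limma-voom, the 10 CPM filter, the columns below 60 M, the depth covariate and the replicate block. Library totals gave 396, of which 86 were higher and 310 lower, against 273 and 112 in the report. Leaving out 1 sample at a time gave 0 to 6 of the 32 and 6 to 1086 of all genes, most of them without Olfr2+ sample 4 and, over all genes, fewest without Olfr2+ sample 2. The median log2 fold change of the 32, 3.06, was 1.83 with library totals, 1.63 with the 10 CPM filter, 2.21 with 15 columns, 1.05 below 60 M, 0.96 with the depth covariate and 1.98 with the replicate block, and 2.16 to 3.25 leaving out 1 sample. Below 60 M, DESeq2 called 4 of 30 and the other settings 0. The difference of the summed level, 1972 CPM, was 4570 with TMM scaling and 445 below 60 M. Ratios without overlap numbered 2, 7 below 60 M (2 samples against 3) and 3 to 4 leaving out 1 sample. The cause of these changes was not tested.

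Log2 fold changes of the other sign were as follows. Below 60 M they were -1.79 (Hk1), -1.41 (Pfkm), -0.77 (Pfkfb4), -0.85 (Aldoa), -0.54 (Pgk1), -0.44 (Eno1), -0.39 (Ldhb), -0.74 (Slc2a6) and 1.14 (Pdk1). With the depth covariate these 9 genes, in that order, had -1.84, -1.51, -0.88, -0.90, -0.64, -0.48, -0.45, -0.83 and 0.93. With library totals they were -1.19 (Hk1), -0.34 (Pfkfb2), -0.20 (Slc2a6), -0.66 (Slc16a3) and -0.12 (Pdk3). With the 10 CPM filter they were -1.46 (Hk1), -0.31 (Pfkfb4), -0.085 (Eno3), -0.82 (Slc2a6), -0.79 (Slc16a3) and -0.24 (Pdk3). With the replicate block they were -2.002 (Hk1), -0.45 (Pfkfb2), -1.15 (Eno3), -0.030 (Slc16a3) and -0.47 (Pdk3). With 15 columns they were -0.44 (Pfkfb2) and -0.69 (Slc16a3), with library names 0.063 (Pfkfb3), 0.10 (Bpgm) and -0.051 (Slc16a3), and with limma-voom 0.22 (Pfkfb3) and 0.61 (Bpgm). Leaving out 1 sample at a time gave -1.97 to 2.01 for Hk1, -0.50 to 1.29 for Slc16a3, -0.89 to 0.28 for Pfkfb3, -0.97 to 2.38 for Bpgm and -0.95 to 0.52 for Pdk1. None of these genes was called in the report.

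The replicate block ties numbers 3 and 4, which occur in both groups. Correlations across genes were 0.01 and -0.07 for same-numbered samples, within the range of -0.18 to 0.20 of the other pairs. Each deviation was from a mean of 3 samples, so these values cannot decide whether a sort or pool was shared. No label ties same-numbered samples to an animal.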
